A study of Canis lupus familiaris with 12 samples.

Results

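HSP90B1, PDIA3 and HERPUD1 encode proteins that fold or clear newly made proteins in the endoplasmic reticulum (ER). They were followed here in MDCK, an epithelial line from dog kidney, with and without Yoda1, a synthetic agonist of the stretch-activated channel Piezo1. The members were the rows of the deposited tables that carry one of the 3 symbols. Each symbol matched 1 gene ID, so there were 3 members among 31121 IDs: ENSCAFG00845010421 (HSP90B1), ENSCAFG00845025959 (PDIA3) and ENSCAFG00845003664 (HERPUD1). All 3 passed the filter on low counts, which left 14169 genes for testing. HSP90B1 and PDIA3 were selected on their measured log2 fold change, being lower with Yoda1 at 12 h, and HERPUD1 because it was lower at 24 h. Those 3 differences are therefore given as descriptions, with no test.

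The study measured polyadenylated RNA by sequencing in 12 libraries, in 4 groups of 3. T1 received 25 µM Yoda1 for 12 h and T2 received 25 µM Yoda1 for 24 h. The labels give C1 and C2 no treatment, and the deposited sample sheet calls them the controls at 12 h and 24 h. Their vehicle was not stated in the labels or the sheet. All groups grew in DMEM with fetal bovine serum and antibiotics. The replicates are numbered 1 to 3 and are not said to come from separate cultures, so p-values speak only to variation among these samples, some or all of which may be technical.

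The lumen of the endoplasmic reticulum is an oxidising, calcium-rich space in which secreted and membrane proteins fold. HSP90B1, also called GRP94, is the Hsp90 chaperone of that lumen and completes the folding of a restricted set of clients that includes integrins and Toll-like receptors. PDIA3, also called ERp57, is a thiol-disulfide oxidoreductase that works with calnexin and calreticulin on glycoproteins and takes part in loading peptides onto class I molecules. HERPUD1 is a membrane protein with a ubiquitin-like domain that joins the complex exporting misfolded proteins for destruction by the proteasome, a process called ER-associated degradation. All 3 are known targets of the unfolded protein response, the programme that adjusts folding capacity to load. An epithelium relies on this machinery for its junction proteins and matrix receptors.

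Library totals ran from 20709218 to 38889592 expected counts. Pairs of C2 libraries gave chi-square values per gene of 48 to 91.4, and pairs in the other groups 5.32 to 23.8. Of 8 kidney epithelium markers the tables name 3: CDH1 (664 to 1210 CPM over all libraries), KRT18 (559 to 1320 CPM) and PAX8 (76.9 to 105 CPM). PAX8 averaged 82.6 CPM in C1, 90.4 in T1, 92.7 in C2 and 85.8 in T2, so CDH1 and KRT18 carried the difference in the sum. The sum of the 3 lay at 2100 to 2390 CPM in C1 and 2210 to 2320 CPM in C2, and at 1560 to 1750 CPM in T1 and 1350 to 1460 CPM in T2. The 7 fibroblast markers summed to at most 6.03 CPM in any library, with DCN and LUM at 0 in all 12; the sum was 4.36 to 6.03 CPM in C1 against 3.07 to 4.18 CPM in T1, and 4.54 to 5.92 CPM in C2 against 4.68 to 5.48 CPM in T2. The 5 endothelial markers measured summed to 14.6 to 16.7 CPM in C1 and 14.2 to 16 CPM in C2, and to 9.85 to 12.8 CPM in T1 and 11.1 to 12.9 CPM in T2, with CDH5 at most 0.251 CPM. The leukocyte marker PTPRC reached at most 0.0823 CPM. The leukocyte list summed to 841 to 1260 CPM over the 12 libraries because 1 of the 2 IDs that share the symbol CD79A lay at 838 to 1260 CPM, and the other at most 0.198 CPM. The smooth muscle list summed to 23.6 to 41.5 CPM, nearly all of it from 1 of 2 IDs with the symbol MYH11. Epithelial and endothelial sums were lower with Yoda1 at both times and the fibroblast sum at 12 h, and their part in the results below was not tested. In bulk samples fewer cells of a kind and less RNA per cell cannot be told apart.

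HSP90B1, the chaperone, was the most abundant of the 3 genes. On the CPM scale (counts relative to the TMM-scaled library total) it stood at 1089, 1037 and 1171 in C1 replicates 1 to 3 and at 571, 546.6 and 529 in T1. At 24 h it stood at 1069, 879.3 and 903.5 in C2 and at 567.8, 592.7 and 573.8 in T2. No treated library reached the lowest control library at either time, as for 16.3% of all genes at 12 h and 16.2% at 24 h, and C2 replicate 1 was the highest of its group. The mean at 12 h was 1099 ± 67.6 CPM in C1 and 548.9 ± 21.1 CPM in T1 (SD, n = 3), a log2 fold change of -1.002 ± 0.085 (SE), 50.1% lower with Yoda1. In that comparison 6.99% of all genes were called in either direction, at an adjusted p under 0.05. In the 24 h libraries, which did not serve to choose it, HSP90B1 fell from 950.7 ± 103 to 578.1 ± 13 CPM (log2 fold change -0.72 ± 0.08, edgeR adjusted p = 0.000382). At 24 h 18.6% of all genes were called and 9.61% were called lower. These shares and p-values come from 1 model of all 12 libraries, with spread estimated over the 4 groups together. Replicate pairs gave chi-square values per gene of at least 48 in C2 and at most 23.8 elsewhere. With only the 6 libraries of each comparison, 12.6% of tested genes were called at 12 h and 8.15% at 24 h. The shares thus do not rank the times. HSP90B1 kept its 24 h call with those 6 libraries alone. That call held in each of the 12 fits that left out 1 library, with edgeR adjusted p from 0.000147 to 0.00383. Those fits also pooled the 4 groups.

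**Figure D1:**
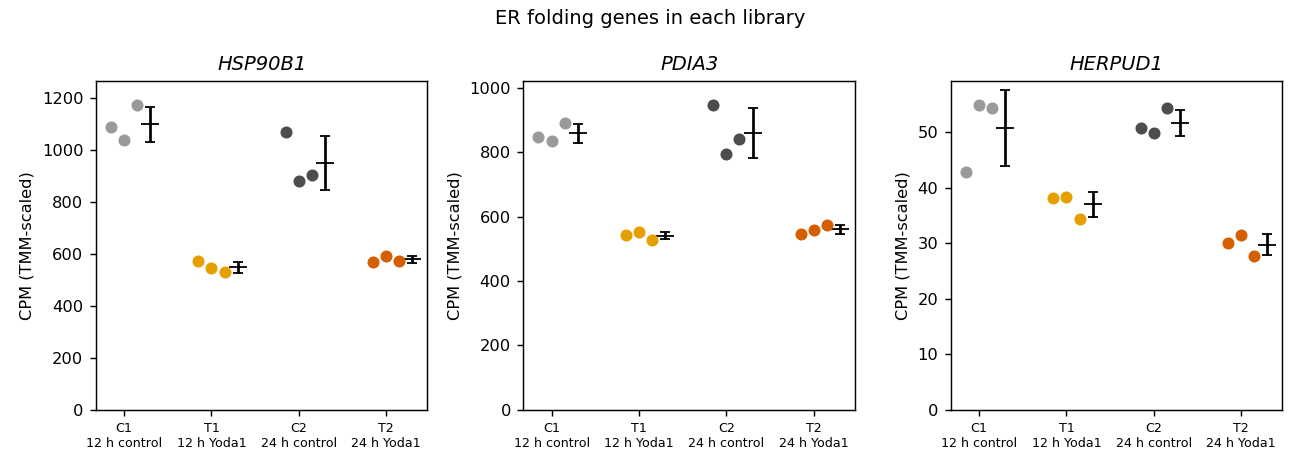
CPM of HSP90B1, PDIA3 and HERPUD1 (vertical axes, from 0) in each of the 12 libraries, by group; points are libraries in the order of replicates 1 to 3, and the black marks give mean and SD of 3. Every Yoda1 library lies below every control library of its time for each gene. The T2 libraries of HERPUD1, which was chosen for low values in T2, also lie below its T1 libraries.

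PDIA3, the oxidoreductase, was nearly as abundant in reads as HSP90B1. It stood at 847.8, 836.1 and 892 CPM in C1 and at 542.6, 551.7 and 528.1 CPM in T1. In the later groups it stood at 945.4, 793.5 and 840.6 CPM in C2 and at 546.9, 559 and 574.8 CPM in T2. The control and treated ranges were again apart at both times, and C2 replicate 1 was again the highest library. At 12 h the means were 858.6 ± 29.5 and 540.8 ± 11.9 CPM (log2 fold change -0.67 ± 0.07), 37% lower with Yoda1. At 24 h, outside the choice, PDIA3 fell from 859.8 ± 77.8 to 560.2 ± 14 CPM (log2 fold change -0.62 ± 0.07, edgeR adjusted p = 0.000442). That call also held in all 12 fits without a library (edgeR adjusted p from 0.000141 to 0.00437).

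HERPUD1, the degradation factor, was far less abundant. It stood at 42.76, 54.79 and 54.39 CPM in C1 and at 38.19, 38.35 and 34.36 CPM in T1. In the later groups it stood at 50.69, 49.87 and 54.23 CPM in C2 and at 30.09, 31.46 and 27.63 CPM in T2. C1 replicate 1 was the lowest control and lay closest to the treated libraries. At 24 h, the contrast that chose it, the means were 51.6 ± 2.32 and 29.73 ± 1.94 CPM (log2 fold change -0.80 ± 0.10), 42.4% lower with Yoda1. At 12 h HERPUD1 fell from 50.65 ± 6.84 to 36.97 ± 2.26 CPM (log2 fold change -0.45 ± 0.10, edgeR adjusted p = 0.0195), a contrast in which 3.97% of all genes were called lower. That call was lost without C1 replicate 2 (edgeR adjusted p = 0.074), C1 replicate 3 (0.0826), T1 replicate 1 (0.0646) or T1 replicate 3 (0.101), while the log2 fold change stayed between -0.561 and -0.391.

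Levels of different genes were compared in TPM, which corrects for transcript length. HSP90B1 averaged 674.8 ± 66 TPM in C1, 354.3 ± 20.8 in T1, 597.4 ± 67.9 in C2 and 373.9 ± 6.48 in T2. PDIA3 averaged 402.2 ± 27.8, 266.5 ± 6.91, 412.2 ± 37.4 and 276.7 ± 6.75 TPM in the same order, and HERPUD1 49.16 ± 6.36, 37.78 ± 2.59, 51.13 ± 0.602 and 30.47 ± 2.15 TPM. HSP90B1 exceeded PDIA3 and PDIA3 exceeded HERPUD1 in all 12 libraries. By mean TPM, HSP90B1 ranked 203 of 31121 IDs in C1 and 414 in T1, then 222 in C2 and 378 in T2. PDIA3 moved from rank 361 to 585 at 12 h and from 344 to 542 at 24 h, and HERPUD1 from 3426 to 4468 and from 3369 to 5203.

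The order of groups differed between the genes. For HSP90B1 the T1 and T2 ranges met at their edges (529 to 571 and 567.8 to 592.7 CPM), and so did those of C1 and C2 (1037 to 1171 and 879.3 to 1069 CPM). For PDIA3 the ranges overlapped both between controls and between treated groups. For HERPUD1 the controls overlapped, while every T2 library (at most 31.46 CPM) lay below every T1 library (at least 34.36 CPM). HERPUD1 was chosen for low values in T2, and the share of all genes with such a gap was not counted. The gap is therefore a description. The log2 difference between the controls, C2 against C1, was -0.21 for HSP90B1, 0.002 for PDIA3 and 0.03 for HERPUD1. These values share the control libraries on which the genes were chosen (C1 for HSP90B1 and PDIA3, C2 for HERPUD1), so they are a description with no test. In that comparison 0.162% of all genes were called, and 0.127% were called lower.

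The 24 h log2 fold change minus that at 12 h was 0.28 for HSP90B1, 0.05 for PDIA3 and -0.34 for HERPUD1. For each gene this contrast holds the fold change that chose it. Choice on a low value at 12 h by itself pushes the contrast up, and choice on a low value at 24 h pushes it down. The 3 values are therefore a description, with no test, and the responses are not shown to differ between the times. Over all genes 0.155% were called in this contrast.

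Ratios within a library are free of scaling between libraries, but they are made of the levels on which the genes were chosen and are given with no test. HSP90B1 held 1.68 ± 0.05 times the TPM of PDIA3 in C1, 1.33 ± 0.04 times in T1, 1.45 ± 0.04 times in C2 and 1.35 ± 0.04 times in T2. The C1 ratios (1.62 to 1.72) lay above those of every other group, and the C2 ratios (1.41 to 1.48) also lay above those of T1 and T2. HSP90B1 over HERPUD1 was 9.39 ± 0.351 in T1 and 12.3 ± 0.714 in T2, with no overlap, against 13.9 ± 2.06 in C1 and 11.7 ± 1.46 in C2. PDIA3 over HERPUD1 was 7.07 ± 0.324 in T1 and 9.12 ± 0.805 in T2, and its ranges in C1 and C2 overlapped. The T1 and T2 ranges of this ratio did not overlap.

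**Figure D2:**
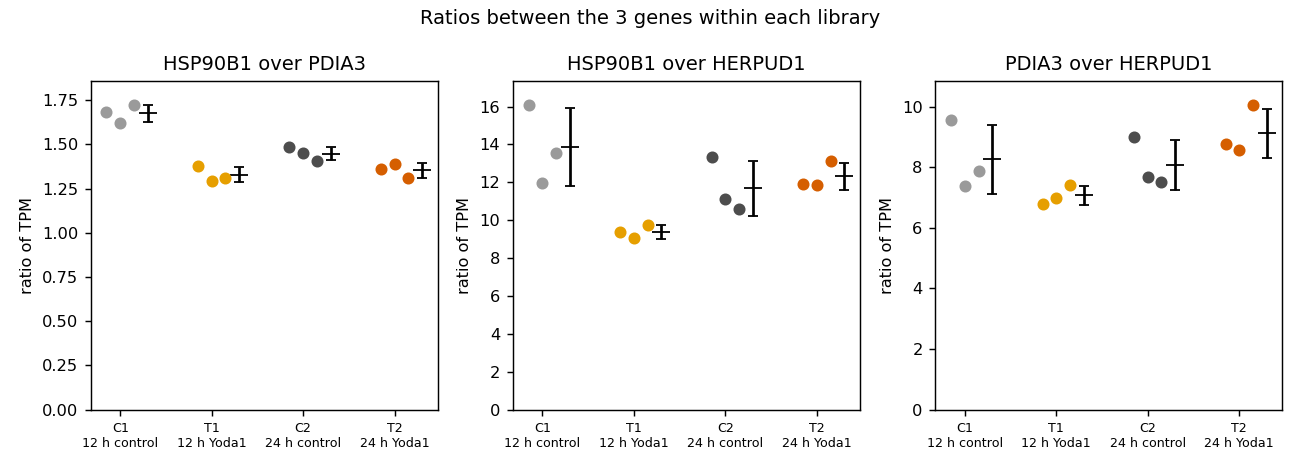
Ratios of TPM between pairs of the 3 genes (vertical axes, from 0) in each library, by group, with mean and SD of 3 in black. HSP90B1 over PDIA3 is highest in C1 (1.62 to 1.72), and both ratios to HERPUD1 are higher in T2 than in T1.

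HSP90B1 and PDIA3 deviated from their group means to the same side in 9 of 12 libraries, HSP90B1 and HERPUD1 in 7, and PDIA3 and HERPUD1 in 6. C2 replicate 1 deviated furthest for both folding genes, by 0.175 and 0.141 on the log2 scale, and by -0.025 for HERPUD1. These are descriptions: the genes of 1 library share its preparation and depth.

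The rest of the machinery was read from 10 lists of ER genes with 212 symbols, of which the tables name 155 and 152 IDs were tested; HSPA5, CALR, P4HB, XBP1 and ATF6 are among those not analysed here. Leaving aside the 3 members, 16 of 149 fell at 12 h and 1 rose (10.7% lower against 3.97% of all genes, 0.671% higher against 3.01%). Their median log2 fold change was -0.104, beside 0.00606 over all genes. At 24 h 32 of 149 fell and 8 rose (21.5% and 5.37%, against 9.61% and 8.96% of all genes), with a median of -0.109 beside -0.0149. At both times 11 of 149 (7.38%) fell, against 2.43% of all genes. The lists were chosen with earlier results of these data known, so these shares are a description. With the members included, 19 of 152 were called lower at 12 h and 35 at 24 h. With only the 6 libraries of each comparison, 27 were called lower at 12 h and 19 at 24 h, so the counts do not rank the times. These counts hold members at the times that chose them, so the counts without members are those to read beside all genes. Counted from the lowest log2 fold change of the 152, at the time that did not choose them, HERPUD1 ranked 14 at 12 h, and HSP90B1 ranked 6 and PDIA3 8 at 24 h.

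The counts depended on single libraries. Of the calls of genes that the naming rule selects, 8 of 34 at 12 h and 31 of 56 at 24 h held in all 12 fits without a library. Of C1, leaving out replicate 1, 2 or 3 turned the 19 lower calls at 12 h into 7, 12 or 8. Leaving out T1 replicate 1 or 3 gave 7 or 4, and leaving out C2 replicate 1 gave 30. At 24 h the 35 lower and 8 higher calls became 20 and 4 without C2 replicate 3, 18 and 2 without T2 replicate 2, and 16 and 2 without T2 replicate 3. With the replicate block at 12 h, where the numbers were taken from these same data to pair the libraries, 59 of the genes were lower and 12 higher. That fit called 32.3% of all genes, 2152 lower and 2245 higher of 13614. By list, that fit called 9 of 14 chaperones lower, 7 of 16 disulfide isomerases and oxidases (1 higher), 7 of 9 calnexin cycle genes, 6 of 11 oligosaccharyltransferase genes and 11 of 14 collagen-folding genes. It called 7 of 29 degradation genes lower and 3 higher, 5 of 12 calcium genes lower, 4 of 22 translocon genes lower and 3 higher, and 1 of 18 retrieval genes lower and 3 higher. These list counts include the members. With the block at 24 h, where the numbers were not taken as pairs, 2.28% of all genes were called. Of the 149 ER genes other than the members, 0 were then called in either direction (38 lower and 9 higher at an unadjusted p under 0.05). The 24 h calls of ER genes named below, other than the members, were thus all lost with the block. Scaled by library size only, 59.4% of all genes called at 12 h were higher against 43.1% with TMM scaling, and 64.9% were with log2(TPM + 1). At 24 h that share was 59.5% with log2(TPM + 1) against 48.3%.

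**Figure D3:**
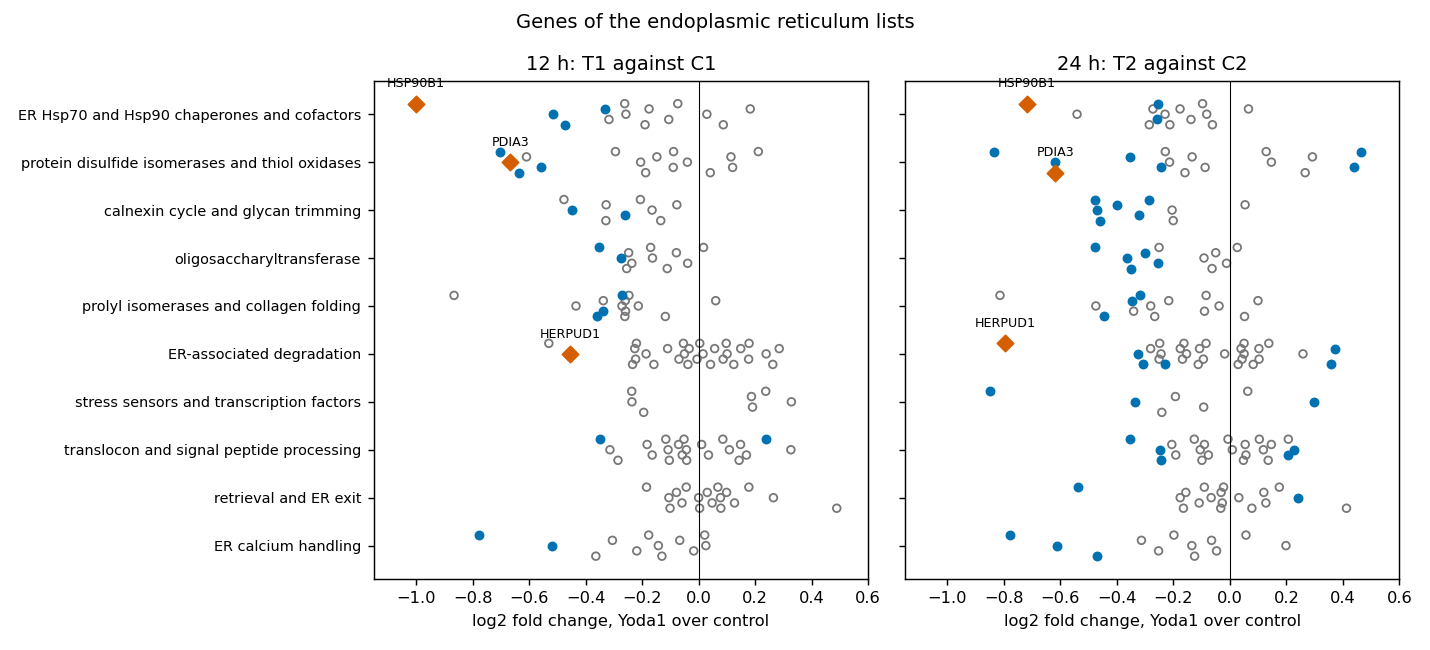
Log2 fold change of Yoda1 over control (horizontal axes) for each tested gene of the 10 ER lists (rows) at 12 h and 24 h. Filled blue points passed the adjusted p threshold of 0.05, open points did not, and orange diamonds mark HSP90B1, PDIA3 and HERPUD1, all of which lie left of 0 at both times.

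The counts by list stand beside all genes called lower (3.97% at 12 h, 9.61% at 24 h) or higher (3.01% at 12 h, 8.96% at 24 h). Among the chaperones and their cofactors, HSP90B1 included, 4 of 14 genes were called lower at 12 h and 3 of 14 at 24 h. The 12 h count holds HSP90B1 at the time that chose it, so that part of the count is no test. HYOU1, an ER relative of Hsp70 that acts as a nucleotide exchange factor, fell from 383.1 ± 38.3 to 267.7 ± 9.66 CPM at 12 h (log2 fold change -0.52 ± 0.08, edgeR adjusted p = 0.00368) and kept that call in all 12 fits without a library. At 24 h its log2 fold change was -0.26 ± 0.08 (edgeR adjusted p = 0.0422), a call that 9 of 12 such fits lost: those without C1 replicate 1, C2 replicates 1 or 2, or any 1 of the T1 or T2 libraries. MANF, a secreted ER stress protein that binds the Hsp70 of the lumen, fell at 12 h from 162.7 ± 6.12 to 117.4 ± 10.5 CPM (-0.47 ± 0.09, edgeR adjusted p = 0.0102; 0.0563 and 0.0518 without T1 replicates 1 and 3). At 24 h MANF stood at 110 ± 13.5 CPM in C2 and 115.1 ± 0.416 CPM in T2.

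HYOU1, MANF and the disulfide isomerase PDIA6 had, like HSP90B1, a lower mean in C2 than in C1. MANF read 159, 159 and 170 CPM in C1 and 102, 126 and 102 CPM in C2, a log2 difference of -0.57 ± 0.09 (edgeR adjusted p = 0.0337). That call held in 10 of 20 alternatives, which gave adjusted p from 4.71e-06 to 1 at -0.671 to -0.514. It was lost without C1 replicates 1, 2 or 3 (0.186, 0.0726 and 0.23), C2 replicate 3 (0.178), T1 replicate 3 (0.0764) or T2 replicates 2 or 3 (0.0662 and 0.0857). It was also lost with log2(TPM + 1) (limma adjusted p = 0.0792), with the 6 libraries alone (edgeR adjusted p = 0.355) and with the replicate block. HYOU1 gave -0.33 ± 0.08 and PDIA6 -0.29 ± 0.09 for C2 against C1 (edgeR adjusted p = 0.145 and 0.243), against -0.21 ± 0.08 for HSP90B1. The 12 h comparison and the comparison of controls both use the C1 libraries.

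Among disulfide isomerases and thiol oxidases, PDIA3 included, 4 of 16 genes were called lower at 12 h, and 5 lower and 2 higher at 24 h. The 12 h count holds PDIA3 at the time that chose it. PDIA6, which like PDIA3 carries thioredoxin domains, fell at 12 h from 679.3 ± 52 to 461.9 ± 13.6 CPM (-0.56 ± 0.09, edgeR adjusted p = 0.00423), a call that none of the 12 fits without a library lost. At 24 h its value was -0.23 ± 0.09 (edgeR adjusted p = 0.0898). QSOX1, a sulfhydryl oxidase, fell at 12 h by 0.64 ± 0.11 on the log2 scale (edgeR adjusted p = 0.00791, and 0.0527 without T1 replicate 3). PDIA5 fell at both times (-0.70 ± 0.17 and -0.62 ± 0.17, edgeR adjusted p = 0.0288 and 0.0253), calls lost in 5 and 3 of the 12 fits. Without C1 replicates 1, 2 or 3 or T1 replicates 1 or 3 it was not called at 12 h, and without C2 replicate 1 or T2 replicates 1 or 2 not at 24 h. Both genes that rose at 24 h kept their calls in the 12 fits: QSOX2, a relative of QSOX1, from 33.24 ± 2.81 to 45.89 ± 3.13 CPM and the peroxidase GPX8 from 203.5 ± 29.7 to 276.2 ± 9.96 CPM (edgeR adjusted p = 0.00484 and 0.00606). GPX8 gave an adjusted p = 0.0503 when the 6 libraries of that comparison were fitted alone.

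The calnexin cycle, in which PDIA3 acts, had 2 of 9 genes lower at 12 h and 6 of 9 at 24 h. CANX, the membrane lectin calnexin, stood at 1451 ± 121 CPM in C1 and 1156 ± 78 CPM in T1 (-0.33 ± 0.09, edgeR adjusted p = 0.0509, and 0.000427 with the replicate block). The pairs of the 12 h block were read from these same counts, so the latter p is no independent test. The 24 h means were 1513 ± 99.8 CPM in C2 and 1086 ± 91.2 CPM in T2, so CANX fell (-0.48 ± 0.09, edgeR adjusted p = 0.00421). LMAN2, a cargo lectin, fell at 24 h by 0.29 ± 0.06 on the log2 scale (edgeR adjusted p = 0.00768, and 0.0573 with the 6 libraries alone). Of the oligosaccharyltransferase, which attaches the glycans that calnexin reads, 2 of 11 genes fell at 12 h and 5 of 11 at 24 h. Its catalytic subunits STT3A and STT3B gave -0.35 ± 0.07 and -0.48 ± 0.09 at 24 h (edgeR adjusted p = 0.00616 and 0.00464). The calls of CANX, LMAN2, STT3A and STT3B at 24 h held in all 12 fits without a library, and each was lost with the replicate block. Those of UGGT1 and UGGT2, the glucosyltransferases that return unfolded glycoproteins to the cycle (-0.47 ± 0.15 and -0.32 ± 0.10, edgeR adjusted p = 0.048 and 0.0364), held in 2 and 5 of the 12. UGGT1 kept its call only without C1 replicate 2 or T2 replicate 1, and UGGT2 lost its call without C1 replicate 3, C2 replicates 2 or 3, T1 replicate 3 or any 1 of the T2 libraries.

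Of 29 genes of ER-associated degradation, 1 was called lower at 12 h, HERPUD1 itself, and at 24 h 4 were called lower, HERPUD1 included, and 2 higher. The 24 h shares, 13.8% lower and 6.9% higher, were near the 9.61% and 8.96% of all genes. The 24 h count holds HERPUD1 at the time that chose it. Its relative HERPUD2 stood at 100.1 and 109.1 CPM in C1 and T1 and at 101.8 and 104.8 CPM in C2 and T2 (log2 fold changes 0.12 ± 0.09 and 0.04 ± 0.09, edgeR adjusted p = 0.463 and 0.793). Beside HERPUD1 the genes called at 24 h were the lectins OS9 (-0.33 ± 0.08) and ERLEC1 (-0.23), the segregase cofactor UFD1 (-0.31 ± 0.10) and the selenoproteins SELENOS (0.37 ± 0.09) and SELENOK (0.36 ± 0.08). OS9 lost its call without C2 replicate 3 or T2 replicate 3, SELENOK without T2 replicates 2 or 3, SELENOS without C2 replicate 3 or T2 replicates 2 or 3, and UFD1 in 11 of the 12 fits, all but that without C2 replicate 1. ERLEC1 lies outside the rule for named genes and was named after its values were seen.

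Of 14 prolyl isomerases and collagen-folding genes, 3 fell at each time. The collagen chaperone SERPINH1 and CRTAP, a subunit of a prolyl hydroxylase complex, fell at 24 h by 0.32 ± 0.07 and 0.45 ± 0.07 on the log2 scale (edgeR adjusted p = 0.00729 and 0.00104), in all 12 fits without a library. In the ER calcium list 2 of 12 fell at 12 h and 3 at 24 h. ATP2A3, a calcium pump of the ER, fell at 24 h from 21.06 ± 5.57 to 12.28 ± 0.529 CPM and TMBIM6, a calcium leak protein, from 659.9 ± 40.8 to 476.4 ± 14.3 CPM (edgeR adjusted p = 0.00585 and 0.000819). Both calls held in the 12 fits. The translocon list had 1 gene higher and 1 lower of 22 at 12 h, and 2 higher and 3 lower at 24 h. The list of retrieval receptors and ER exit had 0 of 18 called by edgeR at 12 h (3 at an unadjusted p under 0.05; DESeq2 and limma voom also called 0), and 1 higher and 1 lower at 24 h.

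The regulators of the unfolded protein response were covered only in part, since 8 of 17 symbols are named and 7 were tested. At 12 h edgeR called 0 of 7 (3 at an unadjusted p under 0.05; DESeq2 called 1 and limma voom 0), and 4 of 7 with the replicate block, 2 in each direction. ATF4, the transcription factor of the integrated stress response, stood at 575.1 ± 62.1 and 656.5 ± 29.7 CPM in C1 and T1 and at 611.2 ± 76.9 and 638.5 ± 38.4 CPM in C2 and T2 (edgeR adjusted p = 0.277 and 0.715, and 0.0154 at 12 h with the replicate block). Results of the 12 h block are no independent test, since its pairs were read from these same counts. DDIT3, which encodes the stress factor CHOP, stood at 14.36 ± 3.62 and 12.61 ± 0.659 CPM, then 15.26 ± 7 and 12.88 ± 1.64 CPM (edgeR adjusted p = 0.758 and 0.64). At 24 h CREBRF and CREB3 fell (-0.85 ± 0.23 and -0.34 ± 0.10) and PPP1R15B, a phosphatase subunit that reverses the stress block on translation, rose (0.30 ± 0.07). Each lost its call without C2 replicate 3, T2 replicate 2 or T2 replicate 3, and CREB3 also without C2 replicate 2 or T2 replicate 1.

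Among targets of ATF4, 3 of 17 rose at 12 h (17.6%, against 3.01% of all genes). At 24 h 2 fell, a share near that of all genes (11.8% against 9.61%). The replicate block at 12 h called 8 of 17 higher and 1 lower, beside 2245 higher and 2152 lower of 13614 genes. The amino acid transporter subunit SLC3A2, the folate enzyme MTHFD2 and the hormone FGF21 rose at 12 h (0.65 ± 0.16, 0.42 ± 0.10 and 0.73 ± 0.20, edgeR adjusted p = 0.0301, 0.0216 and 0.0455), opposite in sign to the 3 members. All 3 calls were lost without C1 replicate 1, C1 replicate 3, T1 replicate 1 or T1 replicate 3. Those of SLC3A2 and FGF21 were also lost without C1 replicate 2 or T1 replicate 2, and that of FGF21 without any 1 of the T2 libraries. At 24 h SESN2 fell from 24.88 ± 2.45 to 13.54 ± 1.18 CPM (edgeR adjusted p = 0.000384) and DDIT4 from 110.2 to 63.06 CPM (edgeR adjusted p = 0.01). The call of DDIT4, which read 110, 78.3 and 142 CPM in C2, was lost without T2 replicate 3. It was also lost with the 6 libraries alone and with the replicate block.

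Of the families that hold known clients of HSP90B1, the integrins and Toll-like receptors among them, 3 of 18 genes fell at each time. With the replicate block 8 of 17 fell at 12 h and 0 of 18 at 24 h. ITGB1, the integrin beta-1 subunit, fell at both times (-0.55 ± 0.09 and -0.50 ± 0.09, edgeR adjusted p = 0.00659 and 0.00372; 0.0514 at 12 h without T1 replicate 3). ITGB5 fell at 24 h from 81.87 ± 5.7 to 60.92 ± 2.79 CPM (edgeR adjusted p = 0.00186). ITGA3 fell at 12 h (-0.37 ± 0.08, edgeR adjusted p = 0.0198) and stood higher in T2 than in C2 (0.19 ± 0.08, edgeR adjusted p = 0.119), with C2 at 768.6 ± 61.1 CPM against 1150 ± 44.2 CPM in C1. Its 12 h call was lost without C1 replicates 1 or 3 or T1 replicates 1 or 3. In the peptide loading list, where PDIA3 also acts, 1 of 4 genes fell at 12 h (2 with the replicate block) and 3 of 4 at 24 h. The latter were B2M, the light chain of class I molecules (-0.45 ± 0.09), the peptide transporter subunit TAP2 (-0.47 ± 0.08) and TAPBPL, a tapasin relative (-1.32 ± 0.23), each called in all 12 fits at 24 h. With the replicate block at 24 h the calls of B2M and TAP2 were lost and that of TAPBPL was kept.

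The genes with the most similar pattern to each member were found over the 12 libraries among 6421 candidates with a symbol and a mean of at least 5 CPM. Likeness was the root mean square difference of log2 CPM after centring each gene on its mean. For HSP90B1 these were APLP2, a relative of the amyloid precursor protein (0.104), the hemidesmosome collagen COL17A1 (0.119), the tight junction protein CLDN1 (0.131), PDIA3 (0.136) and the metalloreductase STEAP3 (0.15). For PDIA3 they were the protocadherin PCDHGC3 (0.087), the tubule receptor subunit CUBN (0.0897), the homeobox gene EVX1 (0.0951), STEAP3 (0.107) and PSD2 (0.107). For HERPUD1 they were the dynein light chain DYNLRB2 (0.0805), the calcium-binding NUCB2 (0.121), the mitochondrial iron carrier SLC25A37 (0.121), the citrate carrier SLC13A5 (0.127) and SYTL1 (0.129). HSP90B1 ranked 22 among the candidates for PDIA3, and HERPUD1 ranked 69 for HSP90B1 and 97 for PDIA3. COL17A1 stood at 1215 CPM in C1, 577.5 in T1, 936 in C2 and 626.5 in T2. The 12 libraries include those on which each member was chosen, which favours genes that are lower with Yoda1. The closeness of HSP90B1 and PDIA3, both chosen at 12 h, and the other likenesses are therefore a description, with no test.

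**Figure D4:**
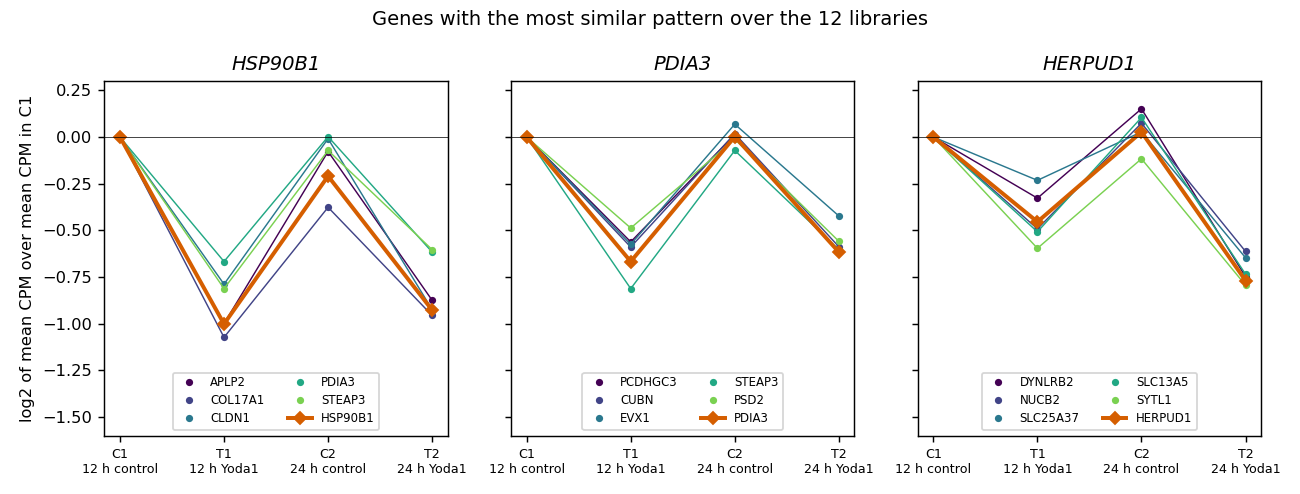
Group means of HSP90B1, PDIA3 and HERPUD1 (orange) and of the 5 genes nearest to each, as log2 of mean CPM over the mean in C1 (vertical axis) for the 4 groups (horizontal axis, 4 separate groups joined by lines for legibility). HSP90B1 and COL17A1 are lower in C2 than in C1, while the PDIA3 and HERPUD1 lines return to near 0 in C2. The genes were matched on libraries that include those that chose each member.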

How the data were processed

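The authors deposited unscaled expected counts for each gene. RSEM 1.3.3, STAR 2.7.10b and fastp 0.23.4 are the tools listed per the submitters' processing notes. Neither the annotation nor the genome build was given in the sources used here, so no coordinates are printed. The authors also deposited TPM, in which each library has the same total. The sample sheet that the authors deposited (unit: other) gives condition and time.

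Expected counts were rounded. Genes were kept by filterByExpr of edgeR 4.0.16 in R 4.3.3 (14169 genes), scaled by TMM, and fitted with edgeR's quasi-likelihood test (robust), all 12 libraries in 1 model and 1 mean for each of the 4 groups. P-values were adjusted by Benjamini-Hochberg over all genes; calls needed an adjusted p under 0.05. The SE was obtained from the log2 fold change and its F statistic, and intervals are 95%. The common biological coefficient of variation was 13.3%. Reads of near-identical copies may have been split by RSEM. The alternatives were DESeq2 1.42.0, limma voom (limma 3.58.1), RLE scaling, library size only, no filter, limma on log2(TPM + 1), the 6 libraries compared, the replicate block, and each library left out.

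The members and lists were chosen with earlier results of these data known. Named genes were the members, their paralogs, the stress regulators, up to 3 genes per list, direction and time with the largest change among called genes without overlap of libraries, and the 5 nearest patterns; some were left out for length, in part by whether calls held without single libraries. Same-numbered C1 and T1 libraries deviated together from their group means (correlations 0.153, 0.283 and 0.115, all over 0.1), so the numbers were taken as pairs at 12 h. The labels do not state a pairing. At 24 h (0.0631, -0.0767 and -0.0841) they were not. Same-numbered T1 and T2 libraries gave 0.23, 0.172 and -0.0805, and C1 and C2 libraries gave -0.00831, -0.19 and -0.205. The pairs were read from the same counts that the block was fitted to. Calls and p-values with the block at 12 h are thus not independent of that choice and may be too favourable.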

Additional observations from a re-analysis of the deposited data

Results flagged for a closer look

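SESN2, a target of ATF4 that restrains mTOR, was flagged for its log2 fold change at 24 h minus that at 12 h, -0.852 (edgeR adjusted p = 0.0422). That contrast holds the 24 h fall by which the naming rule picked SESN2. The adjusted p is therefore no independent test, and the responses are not shown to differ between the times. It read 18.9, 19.3 and 18 CPM in C1, 19.5, 19 and 16.7 in T1, 22.6, 24.6 and 27.5 in C2, and 14.7, 12.3 and 13.6 in T2. The 12 h groups overlapped and the 24 h groups did not. The difference was called in 7 of 19 alternatives and missed the threshold in 12 (edgeR, DESeq2 or limma adjusted p from 9.06e-05 to 0.177, with values from -0.917 to -0.774).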

How the results depend on the processing

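The 6 log2 fold changes of HSP90B1, PDIA3 and HERPUD1 against controls kept their sign in all alternatives. HERPUD1 at 12 h lost its call in 4 of 12 fits without a library (-0.561 to -0.391), and PDIA3 at 12 h was -0.59 with log2(TPM + 1). For the ER lists, lower calls at 12 h (19) were 32 by DESeq2, 12 with log2(TPM + 1), 59 with the replicate block and 4 to 30 without a library; higher calls (1) were 4, 4, 12 and 0 to 5, and 3 by library size only, 4 with 6 libraries and 0 with no filter (8 at an unadjusted p under 0.05). At 24 h lower calls (35) were 19 with 6 libraries, 3 with the replicate block and 16 to 41 without a library; higher calls (8) were 1, 0 (9 at an unadjusted p under 0.05) and 2 to 12, and 5 with no filter. The 3 lower calls with the block at 24 h were the 3 members. HERPUD1 was chosen for its 24 h value, so its part of that count is no test. The cause of these shifts in the counts was not tested. Over all genes, the 990 calls at 12 h were 1646 by DESeq2, 1717 with 6 libraries, 4397 with the block and 167 to 1682 without a library; the 2630 at 24 h were 1131 with 6 libraries, 316 with the block and 1134 to 3337. The 22 calls for the difference were 228 by DESeq2, 34 with no filter, 13 with log2(TPM + 1), 0 with the block (1494 at an unadjusted p under 0.05) and 0 to 362 without a library (362 without C2 replicate 1; 0 without C1 replicate 1 or T1 replicate 3, where 1140 and 1018 genes had an unadjusted p under 0.05), and the 23 between controls were 258 by DESeq2, 5 with log2(TPM + 1), 1 with 6 libraries, 1 with the block and 1 to 282 without a library (282 without C2 replicate 2). At the time that did not choose it, each of the 3 genes kept its call with the block. At the time that chose it, a kept call is no test.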
